A study of Mus musculus with 16 samples.

Results

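The complement system was followed through 7 listed genes, Serping1, C3, C4b, Cfb, C1ra, C1s1 and Cd59a, in 8 immortalized mouse mammary fibroblast lines. All array probes carrying these names were taken, whatever their values. Of the 7 genes, 6 had a probe under their name (7 probes, with 2 for C1s1) among the 16593 named genes of the array. C3 had none and was not analysed here. The expression of 4 genes could be tested (Serping1, C4b, C1s1 and Cd59a), because their signal exceeded background on at least 2 arrays, and Cfb and C1ra fell short of that.

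NF2 and NF3 were isolated from the normal mammary gland of FVB/N mice. Hyperplasia yielded the line HpAF1, adenoma the line AdAF1, and carcinoma the 4 lines CAF1, CAF2, CAF3 and CAF4. The lesions arose in the MMTV-PyMT model on the same strain, in which a mouse mammary tumour virus promoter drives the polyoma middle T oncogene in the mammary epithelium, so that the fibroblasts are not the cells the transgene is aimed at. Every line, the normal ones included, carried the papillomavirus E6 gene used for immortalization. Each line was grown without treatment for 72 h in 10% serum on a deformable gel of Matrigel and collagen I, in 2 cultures with 1 Illumina bead array each. The labels do not state whether a line is a single clone or whether lines came from separate mice. Hyperplasia and adenoma are represented by 1 line each. Where a test compares cultures of a line, its p-value measures only the spread between these cultures, which may be technical.

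Complement is a cascade of plasma proteases that tags and lyses cells. In the classical pathway the proteases C1r and C1s of the C1 complex cleave C4 and C2, which together form the convertase that cleaves C3, and factor B, encoded by Cfb, builds the convertase of the alternative pathway. Serping1 encodes C1 inhibitor, a secreted serpin that inactivates C1r and C1s and also restrains the contact system of plasma kallikrein and factor XII, and CD59 sits on the cell membrane and blocks the final pore. Fibroblasts are a known local source of several of these proteins outside the liver, and their genes are known to respond to interferons and to inflammatory cytokines.

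The 7 genes lie on 3 mouse chromosomes. In the GRCm38.p6 annotation Serping1 lies at chr2:84765360-84775444 and Cd59a at chr2:104095753-104115410. C1ra at chr6:124512621-124523440 and C1s1 at chr6:124530344-124542392 are close together, C4b at chr17:34728139-34743902 and Cfb at chr17:34856374-34862514 lie in the major histocompatibility region, and C3 lies at chr17:57203967-57228136. The RefSeq promoter table of that build held an entry for 4 of the 7 genes (C3, C1ra, C1s1 and Cd59a). The stretches upstream of both tested genes among them are given for the inducible elements known in complement genes, 5′ to 3′ on the strand of the gene, with the only match of each stretch in capitals. C1s1 lies on the minus strand and its stretch covers chr6:124542393-124542609. Cd59a lies on the plus strand and its stretch covers chr2:104095551-104095752.

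C1s1: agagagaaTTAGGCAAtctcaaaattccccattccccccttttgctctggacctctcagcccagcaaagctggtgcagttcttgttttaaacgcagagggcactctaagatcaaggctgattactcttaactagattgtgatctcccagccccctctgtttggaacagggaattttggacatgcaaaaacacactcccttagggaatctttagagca

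Cd59a: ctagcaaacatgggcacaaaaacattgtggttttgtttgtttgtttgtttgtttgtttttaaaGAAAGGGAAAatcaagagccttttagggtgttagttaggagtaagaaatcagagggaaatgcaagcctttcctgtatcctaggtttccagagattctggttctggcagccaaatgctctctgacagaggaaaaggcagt

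The capitals in C1s1 match the C/EBP site searched as TTGCNNAA on both strands, which was present in 10.8% of 32851 promoters of the table. The capitals in Cd59a match the interferon-stimulated element, searched on both strands as GAAA, any 2 bases and GAAA, which was present in 3.443% of them. Of the other 6 motifs searched on both strands, the STAT site TTCNNNGAA (8.298% of promoters), the NF-kappa-B site (8.459%), the AP-1 site TGANTCA (7.808%), the Sp1 site GGGCGG (35.66%), the TATA box TATAAA (13.62%) and the CCAAT box CCAAT (37.41%), none matched in either stretch. All these shares were counted over promoter sequences longer than either printed stretch. A match is only a match of letters.

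The arrays detected between 7445 and 9823 of 25697 probes each. The correlation between the 2 cultures of a line over all tested probes ran between 0.936 in NF3 and 0.994 in CAF1, and in NF2, NF3 and CAF4 an array of another line was closer to one culture than its own second culture was. The lines carried fibroblast markers, with 10 of 12 detected on at least 2 arrays and Fap and Postn at background on every array. They varied between lines, as Lum was detected on 11 of 16 arrays and Dcn ran between 7.51 in CAF2 and 13.75 in HpAF1. All 8 mammary epithelial markers with a probe and 8 of 9 leukocyte markers (all but Lyz2) were detected on 0 of 16 arrays. Of 6 endothelial markers 5 were detected on 0 arrays, and Tek was detected on 15 of 16. Levels below are log2 values of the normalized intensity, and a probe counts as detected on an array where its deposited detection p is under 0.01. In RNA from a whole culture, fewer cells that express a gene and less RNA per cell cannot be told apart.

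Among the tested members, Serping1 differed most between the lines. It was highest in the hyperplasia line HpAF1, intermediate in both normal lines, the adenoma line and CAF1, and close to or below background in CAF2, CAF3 and CAF4. The log2 level was 9.22 and 10.92 in the cultures of NF2, 10.81 and 11.72 in NF3, 13.29 and 13.06 in HpAF1, and 11.53 and 11.25 in AdAF1. Among the carcinoma lines CAF1 had 11.27 and 11.30, CAF2 had 5.26 and 6.00, CAF3 had 7.02 and 7.21, and CAF4 had 5.93 and 5.56. All 6 cultures of CAF2, CAF3 and CAF4 lay below all 10 cultures of the other lines, with 7.21 as the highest value in the low lines and 9.22 as the lowest in the rest. The probe was not detected in either culture of CAF2 or CAF4 and was detected in both of CAF3. Before normalization the deposited intensity was 140 and 158 in CAF2 and 8729 and 8057 in HpAF1.

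**Figure D1:**
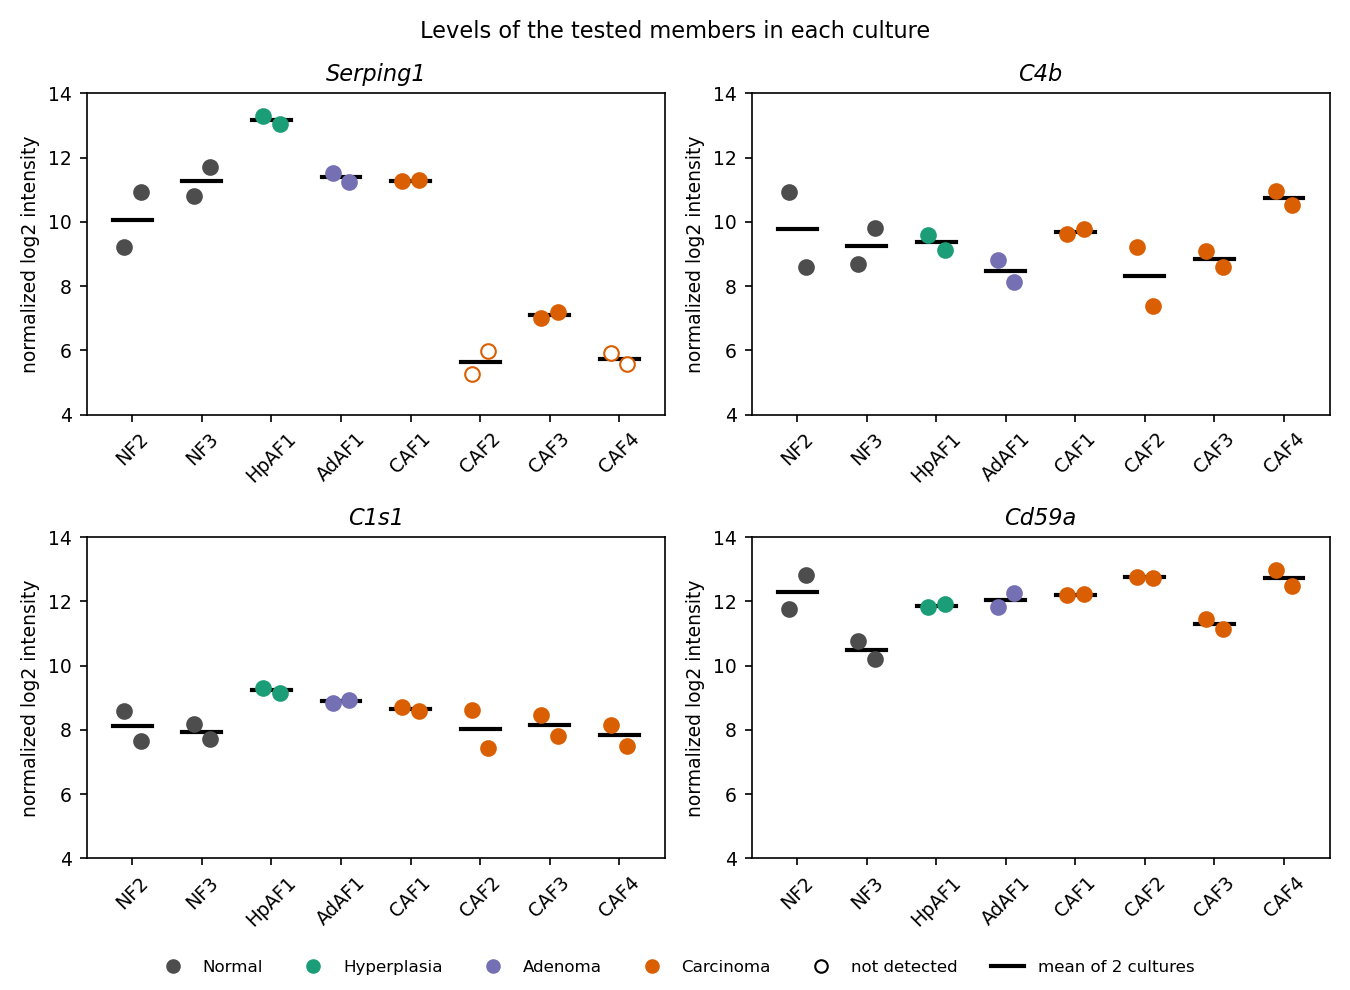
Normalized log2 intensity (vertical axis) of Serping1, C4b, C1s1 and Cd59a in each culture, by line from normal to carcinoma (horizontal axis). Points are cultures coloured by stage, open points are not detected, and bars are means of 2 cultures. Serping1 lies between 5.26 and 7.21 in CAF2, CAF3 and CAF4 and between 9.22 and 13.29 elsewhere, and the cultures of NF2 are far apart for C4b.

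The line means of Serping1 spanned 7.55 on the log2 scale, which ranked 7 among the spans of 7454 tested genes, whose median span was 0.90. Differences among the 8 lines passed the moderated F test of limma for 2 of the 4 tested members, Serping1 (adjusted p = 2.74e-06) and Cd59a (adjusted p = 0.00371), while 25.1% of all tested probes passed it. The adjusted p of that test was 0.114 for C1s1 and 0.169 for C4b. The first culture was the higher in 7 of 8 lines for C1s1 and in 6 of 8 for C4b. With the culture number as a replicate block, C1s1 passed the F test as well (adjusted p = 0.0234). Of the 28 pairs of lines, 19 differed in Serping1, and over all probes and pairs together 7.03% of the tests were called. These 19 were CAF2, CAF3 and CAF4 against each of the other 5 lines, and HpAF1 against AdAF1, CAF1, NF2 and NF3. The level was at least 109.9-fold lower in CAF2 and at least 117.65-fold lower in CAF4 than in HpAF1. Both are bounds, since the probe was not detected on either array of the carcinoma line. The lowest detected signal of each array stands in its place. These bounds hold only under the background correction and offset used here. In the authors' normalized table the measured folds were smaller, 61.2-fold lower in CAF2 and 59.3-fold lower in CAF4 than in HpAF1, and with quantile normalization alone they were 60.7 and 58.9. Within the middle group the neighbours in order of level were AdAF1, CAF1, NF3 and NF2, with no pair called, and within the low group CAF3, CAF4 and CAF2, with no pair called and a largest step of 1.37 between CAF3 and CAF4 (adjusted p = 0.154).

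Set against the normal lines, whose Serping1 level averaged 10.67, the hyperplasia line was 5.69-fold higher and 3 of 4 carcinoma lines were lower. HpAF1 averaged 13.18 ± 0.16 (SD, n = 2), a log2 difference of 2.51 (SE 0.40, limma adjusted p = 0.00160). CAF3 averaged 7.12 ± 0.13 (SD, n = 2) and was 11.7-fold lower (log2 difference -3.55, SE 0.40, limma adjusted p = 0.000495). CAF2 was at least 19.3-fold lower (limma adjusted p = 5.22e-05) and CAF4 at least 20.66-fold lower (limma adjusted p = 4.17e-05). These 4 calls held when any single array was left out and under the other normalizations tried, but the folds below the normal mean depended on the normalization. In the authors' normalized table Serping1 was 11.5-fold lower in CAF2, 7.19-fold lower in CAF3 and 11.1-fold lower in CAF4. AdAF1 and CAF1 were 0.72 and 0.62 above the normal mean on the log2 scale, and neither difference passed (limma adjusted p = 0.386 and 0.392). Leaving out 1 array at a time moved these between 0.30 and 1.15 in AdAF1 and between 0.19 and 1.04 in CAF1, none of them called (lowest limma adjusted p 0.0538 and 0.0687).

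CAF1 thus stood with the normal and adenoma lines and apart from the other carcinoma lines for this gene. Serping1 was at least 29.6-fold lower in CAF2, 18.0-fold lower in CAF3 and at least 31.69-fold lower in CAF4 than in CAF1. The limma adjusted p lay between 2.03e-05 and 0.000273. With quantile normalization alone Serping1 was 16.9-fold lower in CAF2, 10.6-fold lower in CAF3 and 16.3-fold lower in CAF4 than in CAF1. With lines as the replicates, the mean of the 4 carcinoma lines minus that of both normal lines was -3.22 on the log2 scale (SE 1.54) and did not pass (limma adjusted p = 1). No member passed in that comparison, in which 0% of all tested probes passed and 293 of 10453 had an unadjusted p under 0.05, none of them a tested member. The lone hyperplasia line did not pass for any member either when it was set against the spread between lines (0.325% of probes called). Its Serping1 difference of 2.51 then had a standard error of 2.18 (limma adjusted p = 0.699). C1s1 had an unadjusted p of 0.0130 there (limma adjusted p = 0.279). In the adenoma line 0% of probes passed, and C1s1 had the lowest unadjusted p of the members (0.0513).

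**Figure D2:**
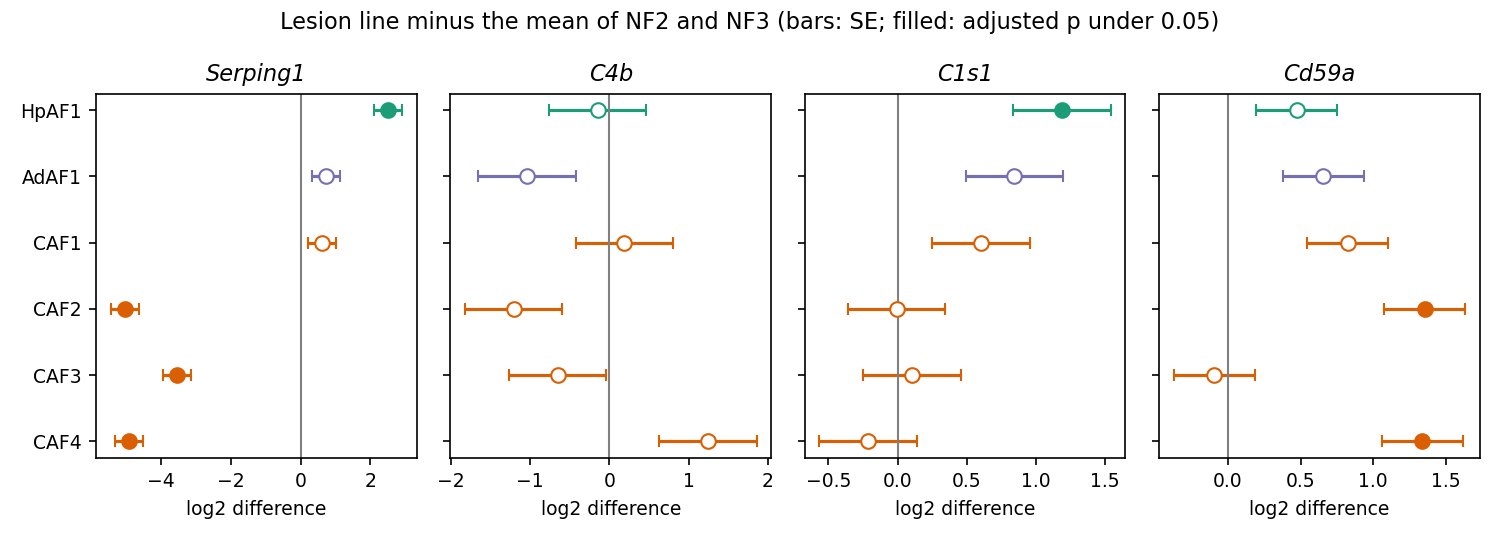
Log2 difference of each lesion line from the mean of NF2 and NF3 (horizontal axis, with its own scale in each panel) for 4 genes, lines running down the page from hyperplasia to carcinoma. Points are differences with their standard errors, filled where the adjusted p is under 0.05. Serping1 lies at 2.51 in HpAF1 and at -5.04, -3.55 and -4.92 in CAF2, CAF3 and CAF4, and Cd59a is filled in CAF2 and CAF4.

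The genes beside Serping1 on chromosome 2 with a tested probe did not share its pattern. Ypel4, 26704 bp away, spanned 0.79 on the log2 scale over the line means, and Ube2l6, a ubiquitin-like conjugating enzyme gene 23383 bp away on the other side, spanned 2.21. Ube2l6 was highest in CAF1 (9.11) and AdAF1 (8.67) and lowest in NF3 (6.90). Its level was 7.67 in HpAF1, where Serping1 was highest, and 7.20, 7.71 and 7.00 in CAF2, CAF3 and CAF4. By the Pearson correlation over the 8 line means, the genes most like Serping1 among 3054 candidates were Ccdc58 (0.992), Ppm1f, which encodes a protein phosphatase (0.973), and Spred2, which encodes an inhibitor of Ras and MAP kinase signalling (0.948). Their spans were far smaller, as Ccdc58 ran only between 9.88 in CAF4 and 10.93 in HpAF1. With the arrays or ranks in place of the line means, at most 1 of these 3 stayed among the first 3. The Spred2 probe was detected on 7 of 16 arrays, and on both arrays of a line only in CAF1. Its line means, between 5.75 in CAF4 and 6.77 in HpAF1, thus lay largely near background.

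C1s1, the gene of the protease that Serping1's product inhibits, varied over a much narrower range. The log2 level was 8.60 and 7.67 in NF2, 8.18 and 7.72 in NF3, 9.30 and 9.16 in HpAF1, and 8.83 and 8.94 in AdAF1. In the carcinoma lines CAF1 had 8.70 and 8.59, CAF2 had 8.63 and 7.44, CAF3 had 8.48 and 7.82, and CAF4 had 8.15 and 7.51. Both cultures of HpAF1 lay above all other cultures, and the cultures of AdAF1 came next. The range of the NF2 cultures overlapped those of all other lines except HpAF1 and AdAF1.

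Against the normal mean of 8.04, C1s1 was 2.28-fold higher in HpAF1, which averaged 9.23 ± 0.10 (SD, n = 2), with a log2 difference of 1.19 (SE 0.35, limma adjusted p = 0.0382). Together with Serping1 this made 2 of 4 tested members higher in HpAF1, where 9.07% of all tested probes were higher and 17.5% were called in either direction. The second C1s1 probe was also called higher in HpAF1 (limma adjusted p = 0.0214). It was detected on 8 of 16 arrays but on only 1 of the 4 normal ones, so its log2 difference of 1.94 was taken against a level mostly at background. The call on the first probe was lost in 8 of the 16 fits that each left out 1 array, namely either culture of HpAF1, AdAF1 or CAF1, the second culture of NF2 or the second culture of NF3, with adjusted p between 0.0537 and 0.216. It was also lost when all probes were tested without the filter on detection (limma adjusted p = 0.0819). In AdAF1 the difference was 0.84 and in CAF1 0.60, and neither passed. Of the 28 pairs of lines, 1 was called on the first probe, CAF4 against HpAF1 at 2.64-fold lower in CAF4 (limma adjusted p = 0.0342). On the second probe 3 were called, HpAF1 against NF3, CAF2 and CAF4, lines in which that probe was not detected.

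Genes of chromosome 6, where C1s1 lies, were higher in HpAF1 as a whole. Their median log2 difference from the normal lines was 0.51 over 383 genes, against -0.03 over the genes of all other chromosomes, and 32.4% of them were called higher, against 7.75% elsewhere. The C1s1 difference of 1.19 stood above that median, and the neighbours C1rl and C1s2 differed by 0.71 and 0.79 in HpAF1, neither passing. The summed intensity of the mesothelial marker list was 1101 in HpAF1 and between 247 and 404 in all other lines. Upk3b, Wt1 and Upk1b were detected, Msln and Lrrn4 were at background on every array, and the probe of Krt19 was not tested. Upk3b stood at 9.25 in HpAF1 and between 4.76 and 5.06 elsewhere. Wt1 was highest in HpAF1 (7.94) but did not pass the F test (adjusted p = 0.0583). Upk1b was higher in NF3 (7.59) than in HpAF1 (7.32). The part of the chromosome and of this marker list in the HpAF1 results was not tested. The genes most like C1s1 over the line means were Ifnar2, which encodes a chain of the type I interferon receptor (0.990), Gch1, the first enzyme of tetrahydrobiopterin synthesis (0.982), and the collagen gene Col24a1 (0.979). With the arrays or ranks in place of the line means, at most 1 of them stayed among the first 3.

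C4b encodes the substrate that C1s cleaves. Its log2 level was 10.94 and 8.60 in NF2, 8.68 and 9.82 in NF3, 9.61 and 9.12 in HpAF1, and 8.82 and 8.12 in AdAF1. In the carcinoma lines CAF1 had 9.64 and 9.77, CAF2 had 9.21 and 7.39, CAF3 had 9.11 and 8.61, and CAF4 had 10.97 and 10.54. It was detected on all 16 arrays, and the largest gap between cultures of a line, 2.34 in NF2, was nearly as wide as the span of 2.45 over the line means. CAF4 had the highest mean, 10.76 ± 0.31 (SD, n = 2), and CAF2 the lowest, 8.30 ± 1.29 (SD, n = 2).

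No line differed from the normal mean of 9.51 in C4b by limma, with log2 differences between -1.21 in CAF2 and 1.24 in CAF4 and adjusted p between 0.303 and 0.902. Leaving out 1 array at a time moved the C4b difference between -2.12 and -0.30 in CAF2, 0.66 and 1.83 in CAF4, -1.63 and -0.46 in AdAF1, and -1.24 and -0.070 in CAF3, and none was called. Of the 28 pairs 0 were called by limma, and 3 had an unadjusted p under 0.05, all of them with CAF4 on the higher side. CAF4 was 2.45 above CAF2 on the log2 scale in C4b (limma adjusted p = 0.0987). The genes most like C4b over the line means were H2-Ab1, a class II histocompatibility gene (0.878), the glypican gene Gpc1 (0.865) and Lrp4 (0.852). H2-Ab1 was detected in CAF4 alone, at a mean of 6.48. Its means of 4.83 to 5.45 in the other 7 lines lay within the background, so that its likeness to C4b rests on CAF4. Over the arrays none of these 3 genes stayed among the first 3, and by ranks 2 did.

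Cfb and C1ra stayed at or near background. Cfb was detected on 1 of 16 arrays, the second culture of CAF1 with a detection p of 0.00376 and a level of 5.99. Its first culture stood at 5.20 and the cultures of HpAF1 at 5.31 and 5.62, and all other cultures lay lower. C1ra was detected on 0 of 16 arrays, with levels between 4.59 and 5.16 and a lowest detection p of 0.0777. For C1ra this says only that its probe measured no signal above background, and no level can be set beside that of its partner C1s1.

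Cd59a, the membrane inhibitor of the lytic pore, was strongly expressed in all lines and followed another order. Its log2 level was 11.77 and 12.82 in NF2, 10.77 and 10.20 in NF3, 11.82 and 11.91 in HpAF1, and 11.82 and 12.27 in AdAF1. In the carcinoma lines CAF1 had 12.20 and 12.24, CAF2 had 12.76 and 12.73, CAF3 had 11.44 and 11.15, and CAF4 had 12.97 and 12.49. NF3 held both of the lowest values, CAF3 came next, and the range of the NF2 cultures enclosed those of HpAF1, AdAF1, CAF1 and CAF2 and overlapped that of CAF4.

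Cd59a was higher than the normal mean of 11.39 in CAF2, by 2.56-fold (log2 difference 1.36, SE 0.28, limma adjusted p = 0.0153), and in CAF4, by 2.53-fold (1.34, SE 0.28, limma adjusted p = 0.0391). With Serping1 lower, 2 of 4 tested members were called in CAF2, where 5.77% of all probes were called, and 2 of 4 in CAF4, where 1.43% were. In CAF3 only Serping1 was called among the 4 tested members (4.3% of probes). In CAF1 0 of 4 passed in limma (7.08% of probes), with 1 at an unadjusted p under 0.05, and in AdAF1 0 of 4 passed (3.96% of probes), with 2 at that level. The CAF2 call was lost without either culture of CAF2 (limma adjusted p = 0.120 and 0.0751). The CAF4 call was lost in 13 of 16 fits that each left out 1 array, with adjusted p between 0.0526 and 0.346, and held without the second culture of NF2 or either culture of NF3. Without the second culture of NF2, Cd59a also passed in AdAF1 and CAF1 (limma adjusted p = 0.0481 and 0.0207).

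The means of the normal lines in Cd59a were 12.29 in NF2 and 10.49 in NF3, a pair that was not called (limma adjusted p = 0.0747). The pairwise comparisons show where the calls lie. Of the 28 pairs 7 were called. Cd59a was higher than in NF3 in HpAF1, AdAF1, CAF1, CAF2 and CAF4, by 2.60- to 4.78-fold, and it was lower in CAF3 than in CAF2 and higher in CAF4 than in CAF3. No line was called against NF2, and CAF2, CAF4, NF2, CAF1, AdAF1 and HpAF1 followed each other in order of level without a called step. The genes most like it over the line means were Mef2c, a transcription factor (0.900), Mlf1 (0.887) and A4galt, a glycosyltransferase (0.879), of which 2 stayed among the first 3 over the arrays and 0 by ranks.

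Cd59b, the second mouse CD59 gene, lies 9962 bp from Cd59a. By line mean it was highest in CAF2 (9.80 and 9.41) and lowest in CAF3 (7.00 and 6.96), and it was 3.98-fold higher in CAF2 than the normal mean (log2 difference 1.99, SE 0.26, limma adjusted p = 0.00108). As a description, Cd59a and Cd59b correlated at 0.789 over the 8 line means and at 0.762 over the 16 arrays, which share their normalization. Cd59a and Cd59b are near copies of each other, as are C4b and C4a, C1s1 and C1s2, and C1ra and C1rb, and since the probe sequences were not used here, signal from the partner was not tested.

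**Figure D3:**
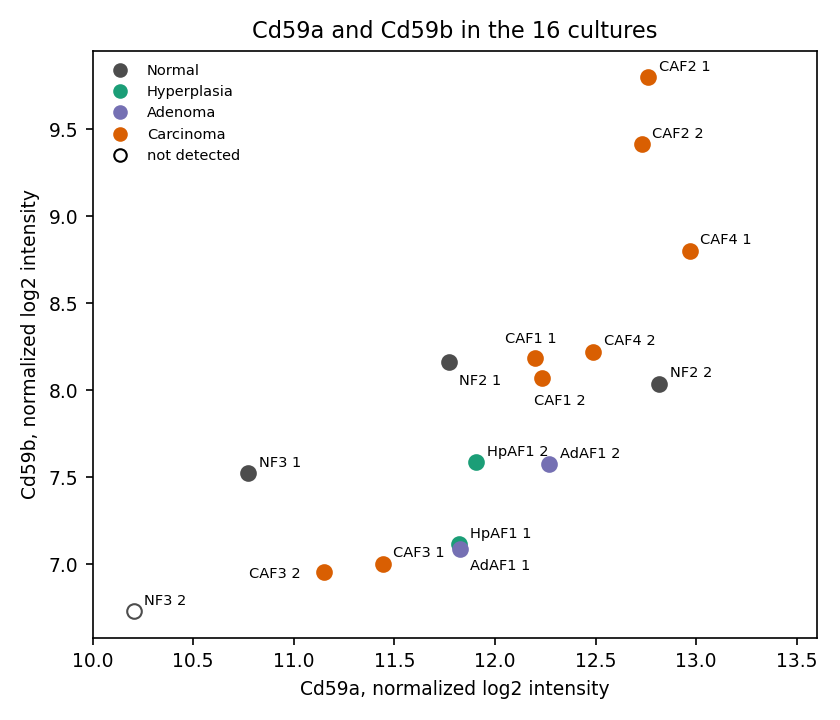
Normalized log2 intensity of Cd59b (vertical axis) and Cd59a (horizontal axis) in each of 16 cultures, labelled by line and culture and coloured by stage. Both CAF2 cultures lie at the top right, and the second culture of NF3, open because Cd59b was not detected there, at the bottom left.

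The tested members did not move as a block. Over the 8 line means Serping1 correlated with C1s1 at 0.748, with C4b at -0.06 and with Cd59a at -0.42 (Pearson, as a description), and the protease and the inhibitor parted in CAF2, CAF3 and CAF4. There Serping1 differed from the normal mean by -5.04, -3.55 and -4.92 on the log2 scale, while C1s1 differed by -0.0069, 0.10 and -0.21, with limma adjusted p between 0.874 and 0.996.

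Of 58 complement genes listed by pathway, 50 had a probe and 15 were tested, and 6 of these 15 differed among the lines by the F test, beside 25.1% of all tested probes. Besides the members Serping1 and Cd59a these were Clu, C2, Cr1l and Cd59b, so that 4 of 11 passed with the members left out. Clu, or clusterin, a fluid-phase inhibitor of the terminal pathway, was 51.9-fold higher in HpAF1 than in the normal lines, at 12.42 against 6.72 (log2 difference 5.70, SE 0.36, limma adjusted p = 1.45e-06), and 3.48-fold higher in CAF2 (limma adjusted p = 0.0138). Its probe was detected on 2 of the 4 normal arrays, so the normal level lay partly at background. Both tested fluid-phase regulators, Serping1 and Clu, were thus higher in HpAF1, where 9.07% of all tested probes were higher. In CAF2 they were called in opposite directions, where 3.18% of all probes were higher and 2.59% lower. Serping1 is a member, and the members were chosen with earlier results known.

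Of the 7 tested classical and lectin pathway genes (C1qa, C1rl, C1s1, C1s2, C2, C4b and Colec12), 1 passed the F test, which 25.1% of all tested probes passed. This was C2, the partner of C4 in the classical convertase, which was 3.26-fold lower in CAF2 (log2 difference -1.71, SE 0.21, limma adjusted p = 0.000785) and 1.94-fold lower in AdAF1 (limma adjusted p = 0.0272). In HpAF1 it was 1.67-fold higher (limma adjusted p = 0.0336). Of the 4 tested membrane regulators (Cr1l, Cd59a, Cd59b and Csmd1), 3 passed beside the same 25.1%. Cr1l, which encodes the mouse regulator Crry and was detected on 1 of 2 arrays of HpAF1, was 1.70-fold lower in HpAF1 (limma adjusted p = 0.0438). C8g of the terminal pathway and the receptor gene C1qbp did not pass, and none of the genes of the alternative pathway was tested.

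Over the 15 tested complement genes, 4 were called higher and 1 lower in HpAF1, with a median log2 difference of 0.47 beside -0.02 over all tested genes, and beside 9.07% of all probes higher and 8.47% lower. In CAF2 3 were higher and 2 lower (median -0.18 beside -0.01), where 3.18% of all probes were higher and 2.59% lower. In CAF4 1 was higher and 1 lower (median 0.07), where 0.756% of all probes were higher and 0.67% lower. In CAF3 1 was lower (median -0.34 beside 0.01) and 1.93% of all probes were. In AdAF1 1 was lower (median -0.08) and 1.22% of all probes were. In CAF1 0 were called by limma (median 0.19), where 7.08% of all probes were called in either direction. Without the 4 tested members, which were chosen with earlier results known, 11 genes were left, beside the same shares of all probes. Of these, 2 were called higher and 1 lower in HpAF1 (median 0.16), and 2 higher and 1 lower in CAF2 (median -0.18). In AdAF1 1 was lower (median -0.12), and in CAF1, CAF3 and CAF4 0 were called (medians -0.36, -0.34 and 0.07). The summed adipocyte markers were 431 in CAF2 and between 162 and 224 in the other lines, with Adipoq detected and Plin1, Cidec, Lep and Fabp4 at background on every array. The summed leukocyte markers were 379 in CAF3 and between 265 and 298 elsewhere, through Lyz2 alone. The part of both lists in the CAF2 and CAF3 results was not tested.

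**Figure D4:**
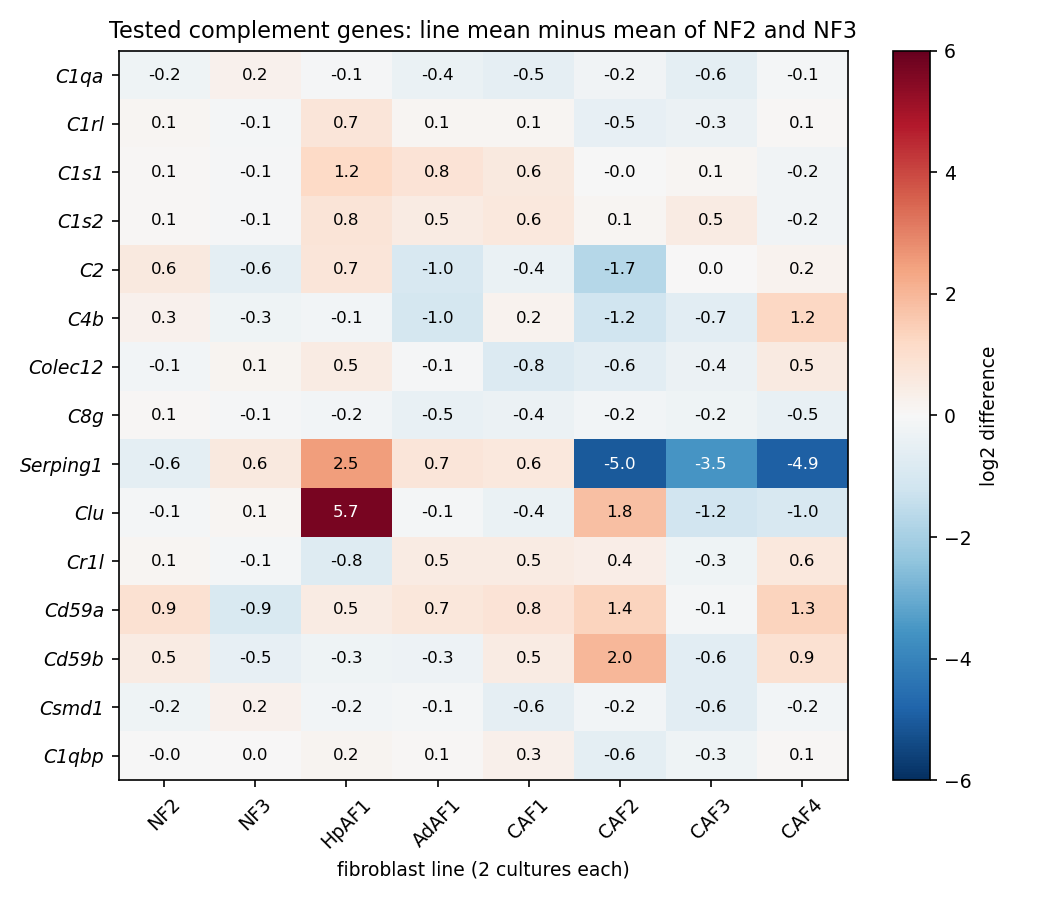
Log2 difference of each line mean from the mean of NF2 and NF3 (colour and printed value) for the 15 tested complement genes (rows, grouped by role) in the 8 lines (columns, from normal to carcinoma). Serping1 is the row with the lowest values in CAF2, CAF3 and CAF4, and Clu the row with the highest value, 5.7 in HpAF1.

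The contact system is the other cascade held back by C1 inhibitor. Only its substrates, the kininogen genes Kng1 and Kng2, had tested probes of 9 genes listed, and both were lower in HpAF1 than in the normal lines, by at least 2.66-fold for Kng1 (limma adjusted p = 0.00964) and at least 1.58-fold for Kng2 (limma adjusted p = 0.0212). Of all tested probes 8.47% were called lower in HpAF1. The probes of Kng1 and Kng2 were not detected on either array of HpAF1, and the 2 genes are near copies of each other. The Kng2 probe was detected on 2 of the 4 normal arrays, so its normal level lay partly at background. Kng2 did not pass the F test among the lines (adjusted p = 0.0740). In the other 5 lesion lines neither gene passed, with log2 differences between -2.23 and -0.86 for Kng1 (limma adjusted p between 0.0564 and 0.463) and between -2.04 and -0.68 for Kng2 (limma adjusted p between 0.101 and 0.570). The difference between HpAF1 and those lines was not tested.

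Of 18 tested genes of the cytokine pathways known to act on complement genes, 9 differed among the lines, beside 25.1% of all tested probes. The 9 count Il6, whose probe was detected in CAF1 alone and so passed the filter through the line where it is high. They also count Irf7, detected on both arrays of AdAF1 and of CAF1, on 1 of 2 in CAF3 and in no other line. Irf7 thus also passed the filter through lines where it is high. Nfkbiz, an inducible co-regulator of NF-kappa-B, had the lowest p. Nfkbiz divided the lines much as Serping1 did, with the exception that CAF1 and AdAF1 stood with HpAF1. Its line means were 9.35 in NF2, 8.75 in NF3, 11.05 in HpAF1, 10.89 in AdAF1 and 11.15 in CAF1. They were 7.63 in CAF2, 7.83 in CAF3 and 7.66 in CAF4. Against the normal mean it was 4.00-fold higher in HpAF1, 3.57-fold higher in AdAF1 and 4.29-fold higher in CAF1, and 2.67-, 2.34- and 2.62-fold lower in CAF2, CAF3 and CAF4, with limma adjusted p at or below 0.00782 in all 6 lines. Over the line means Nfkbiz correlated with Serping1 at 0.887 and with C1s1 at 0.881 (Pearson, 8 lines, as a description). Other genes of the list correlated more highly with C1s1, among them Ifnar2 (0.990) and Relb (0.921).

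Relb, a subunit of NF-kappa-B, was 2.61-fold higher in HpAF1 (limma adjusted p = 0.000487), 2.53-fold higher in AdAF1 and 1.88-fold higher in CAF1, and no call was made in CAF2, CAF3 or CAF4. The Relb probe was detected on 2 of the 4 normal arrays, both of NF2, so its normal level lay partly at background. Ifngr1, which encodes a chain of the interferon-gamma receptor, was 1.66-fold lower in HpAF1 (limma adjusted p = 0.00786) and 2.65-fold and 1.57-fold higher in CAF2 and CAF3 (limma adjusted p = 0.000320 and 0.0352). Its differences of 0.57 in AdAF1, 0.55 in CAF1 and 0.69 in CAF4 on the log2 scale did not pass (limma adjusted p = 0.0627, 0.0522 and 0.0507). Over the line means Ifngr1 correlated with Serping1 at -0.78. The probe of Il6 was detected on both arrays of CAF1 and on no other, so it entered the tests through that line alone and its level is given with no test, at 6.79 in CAF1 and 5.13 in the normal lines.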

How the data were processed

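Total RNA of 16 cultures was labelled with biotin and hybridised to Illumina bead arrays, per the labels' protocols. The authors deposited non-normalized intensities with a detection p-value per probe and array, and a table of normalized intensities whose method no source used here gives. Both rank the probes of each array alike. Probes were named through the platform annotation (23978 of 25697 with 1 symbol, 1719 with none), updated by gene number (23962 matched) to RefSeq on GRCm38.p6.

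The intensities were background-corrected and quantile-normalized on the log2 scale with neqc of limma 3.58.1 (R 4.3.3, offset 16). The 10453 probes with a detection p-value under 0.01 on at least 2 arrays were tested. A model with 1 mean per line gave the contrasts, pairs and F test, and a model on line means gave the stages, with Benjamini-Hochberg adjustment over all tested probes and a threshold of 0.05. A gene with several probes was represented by its brightest. The members and gene lists were chosen with earlier results of these data known. The text names all members, every tested complement gene, up to 4 contact or cytokine genes by lowest F-test p, and 3 genes of like pattern per member among genes whose line means span at least 1. Irf7 is named only for its detection. The scripts were tested on simulated data. Culture numbers were not used to pair the lines in the main models. The correlation of same-numbered deviations exceeded 0.1 in 12 of 28 pairs of lines (range -0.20 to 0.65). These correlations do not show that the cultures are unpaired. Scan and labelling batches are not given, so batch and line cannot be told apart. The number of arrays limits the precision. Alternatives were the authors' normalized table, quantile normalization without background correction, an offset of 50, no or a stricter detection filter, blocks, and leaving out each array or line.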

Additional observations from a re-analysis of the deposited data

How the results depend on the processing

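The number of the 4 tested members called per comparison, and their direction where called, were recomputed under each alternative. Without the detection filter, 1 member was called in HpAF1 and 1 in CAF4 in place of 2, since C1s1 in HpAF1 had an adjusted p of 0.0819 and Cd59a in CAF4 0.0718. Leaving out 1 array at a time gave 1 to 2 called members in HpAF1, 0 to 1 in AdAF1, 0 to 1 in CAF1, 1 to 2 in CAF2 and 1 to 2 in CAF4. The calls over pairs of lines, 27 of 112, ran between 21 and 38 in these fits, and no member was called over stages in any fit. Serping1 kept its direction and its calls in HpAF1, CAF2, CAF3 and CAF4 under every alternative run, but its span over the line means shrank to 5.93 in the authors' normalized table, 5.92 with quantile normalization alone and 6.79 with an offset of 50. The uncalled C1s1 difference in CAF2 changed sign, from the reported -0.0069 to 0.0099, 0.0098 and 0.0014 under the same 3 settings. Other uncalled differences crossed 0 when arrays or lines were left out. In C4b they ran between -0.73 and 0.44 in HpAF1, -0.39 and 0.77 in CAF1, -0.56 and 0.26 for carcinoma and -0.41 and 0.11 for hyperplasia. In C1s1 they ran between -0.60 and 0.59 in CAF2, -0.23 and 0.44 in CAF3, -0.53 and 0.11 in CAF4 and -0.038 and 0.23 for carcinoma. In Cd59a they ran between -0.36 and 0.17 in CAF3, -0.047 and 1.76 for carcinoma, -0.43 and 1.38 for hyperplasia and -0.25 and 1.56 for adenoma. The causes were not tested. With the culture number as a replicate block, 3 members passed the F test in place of 2, the third being C1s1 (adjusted p = 0.0234, and 0.00802 for its difference in HpAF1), 31 of 112 pairs were called, and the members' counts in single lines and over stages were as without it. Levels within background, as for Serping1 in CAF2 and CAF4, bound the folds from below only under the background correction and offset used. In the authors' normalized table and with quantile normalization alone, the measured folds fell below those bounds.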
